A study of Mus musculus with 6 samples.

Results

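The genes described here are 34 cytosolic translation factors, taken by gene symbol from a table of read counts in mouse thymocytes. They comprise 5 factors of scanning, start codon choice and subunit joining, 3 of eIF2 and eIF2B, 11 subunits of eIF3, 7 members of the eIF4 group with poly(A)-binding protein, the eIF5A pair, and 5 elongation factors. All 34 symbols were found among the 34573 genes of the table, and all 34 passed the filter on low counts. RNA was sequenced from double negative 3 (DN3) thymocytes, immature T cells marked by CD25 that lack CD4, CD8 and CD44. The 3 KO libraries came from Cre+ mice with floxed Rpl22l1 alleles (Rpl22l1f/f, genotype L1 KO), and the 3 WT libraries from Cre- mice with the same floxed alleles. Both groups were adult mice, aged 6 to 8 weeks, whose strain is given as a mix of C57BL/6 and 129. The series text names Vav-Cre, whose promoter is active across blood-forming cells, and attaches it to the opposite genotype. The sample labels were followed here, and the Rpl22l1 level serves as their check. Rpl22l1 encodes a ribosomal protein closely related to the product of Rpl22, and the comparison asks what its loss does to gene expression in DN3 cells. Since all KO mice carried Cre and no WT mice did, an effect of Cre and one of Rpl22l1 loss cannot be told apart.

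In textbook terms, translation begins when eIF2 brings the initiator tRNA to the small ribosomal subunit. eIF3 holds this complex together, eIF4E binds the mRNA cap, and eIF4G, eIF4A and eIF4B open the leader for scanning. eIF1, eIF1A and eIF5 control the choice of the start codon, and eIF5B joins the large subunit. Elongation then runs on eEF1A, which delivers aminoacyl-tRNA, its exchange factor eEF1B, and eEF2, which moves the ribosome. eIF5A, the only protein known to carry the amino acid hypusine, helps ribosomes through sequences that stall them. Thymocytes raise protein synthesis when they pass beta-selection, the checkpoint that follows the DN3 stage.

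Reads counted to genes numbered 13887672 to 28128186 in the KO libraries and 19570475 to 21571810 in the WT libraries. Rpl22l1 had 18.6 to 26.1 CPM in the KO libraries, against 86.3 to 123 CPM in the WT libraries, so each library matched its label. CPM are library-scaled counts (counts per 1000000 reads, adjusted by TMM). Among 12 listed DN3 genes, Il2ra (CD25), Ptcra and Notch3 averaged 1926, 124 and 646 CPM in KO. In WT they averaged 1560, 119 and 809 CPM. Of 5 genes listed as low or absent at DN3, Cd4, Cd8a, Cd8b1 and Cd44 averaged at most 3.33 CPM in either group. Cd44 averaged 3.33 CPM in KO and 1.52 CPM in WT. The remaining gene of that list, Kit, was not near 0, with means of 25.8 CPM in KO and 42.3 CPM in WT. Of the B cell markers Pax5 and Ms4a1 had 0 reads in all 6 libraries, as had Ncr1 of the NK cell markers, while Cd79b was at 22.9 to 26.6 CPM in KO and 30.2 to 32.6 CPM in WT, and Nkg7 at 30.3 to 41.1 CPM in KO and 35.3 to 39.4 CPM in WT. Deviations from the group means, compared across genes, correlated at 0.58, 0.17 and 0.34 between libraries of the same number. Between libraries of different numbers they correlated at −0.47 to −0.29 where 1 was a number 1 library, but at 0.22 for KO 2 with WT 3 and 0.29 for KO 3 with WT 2, so numbers 2 and 3 were not told apart. With 3 pairs all above 0.1 the numbers were treated as pairing the libraries, although the labels name no litter or day behind them. KO 2 with WT 3 and KO 3 with WT 2 were above 0.1 as well, so this rule cannot identify the pairs. Results of a fit with the number as a block stand beside the main ones where they differ. Since the pairing was judged from these same expression values, the block results are an alternative fit and not independent support.

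The 2 members that passed the test, Eif5a2 and Eif4e, both lie on chromosome 3 but far apart, starting at positions 28781276 and 138526179. Promoter sequence of both is shown because these are the genes on which the comparison turned. Sequences are from RefSeq on GRCm38.p6, on the coding strand. The 250 bases before the Eif5a2 start (chr3:28781027-28781276, plus strand) read as follows, with capitals marking CACGTG, the E-box bound by MYC and MAX among others, CCGGAAG, a motif of ETS factors, and GGGCGG, a motif of SP factors, on either strand.
Eif5a2: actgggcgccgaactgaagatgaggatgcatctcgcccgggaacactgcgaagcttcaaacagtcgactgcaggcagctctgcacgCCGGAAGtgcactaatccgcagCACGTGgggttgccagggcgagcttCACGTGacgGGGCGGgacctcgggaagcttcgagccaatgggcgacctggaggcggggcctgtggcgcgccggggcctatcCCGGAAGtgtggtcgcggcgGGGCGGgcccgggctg
Eif4e has 2 RefSeq starts, and the upstream one, nearest the annotated gene start, has no CACGTG in its window. The downstream one, at position 138527268, also follows 2 E-boxes, shown here with their flanks (chr3:138527032-138527053 and chr3:138527196-138527217, plus strand).
Eif4e distal E-box: ccagcgacCACGTGatcacttt
Eif4e proximal E-box: acgtccgtCACGTGggcaggag
Of the 34 members, 25 matched the RefSeq promoter table, with 31 windows that run from 250 bases before a start to 50 after it. CACGTG occurred in at least 1 window of 10 of these 25 genes, or 40%, against 8.09% of all 27025 genes in the table. The 10 were Eef2, Eif3a, Eif3f, Eif3k, Eif4a1, Eif4e, Eif4g1, Eif4h, Eif5a and Eif5a2. For Eif4e and Eif5a, the window nearest the annotated gene start had no match, and the matches lay in windows of other starts. CCGGAAG was found in 32% of the member genes and 9.93% of all genes, and GGGCGG in 72% and 38.2%. These windows were also richer in G and C, with a median of 62.7% against 52.7% for all 32851 windows. A match is a description of the letters, not of binding.

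Many mRNAs of the translation machinery begin with a terminal oligopyrimidine (TOP) tract, a C followed by further pyrimidines, through which mTOR and LARP1 control their translation. Textbook TOP mRNAs among the members are 10 in number: Eef1a1, Eef1b2, Eef1d, Eef1g, Eef2, Pabpc1, Eif3e, Eif3f, Eif3h and Eif4b. Of these, Eef1d, Eef1g, Pabpc1, Eif3e and Eif3h had no window in the promoter table, so their starts were not examined. The annotated starts showed a run of at least 8 pyrimidines within 15 bases on either side in 4 of the 25 matched genes, 16%, against 13.9% of all genes. Each line below gives the 15 bases before and the 15 after such a start, with the run in capitals.
Eef1a1, chr9:78481710-78481739, minus strand: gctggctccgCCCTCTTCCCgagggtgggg
Eif3f, chr7:108934400-108934429, plus strand: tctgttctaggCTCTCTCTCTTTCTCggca
Eif3l, chr15:79075208-79075237, plus strand: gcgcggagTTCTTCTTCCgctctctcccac
Eif4e, downstream start, chr3:138527253-138527282, plus strand: tcgCCCCCCCTTCaggagcggttgtgcgat
Among these genes Eef1a1 and Eif3f are textbook TOP members, while Eif3l and Eif4e are not, and the Eif4e run lies wholly before its start. Whether any of these runs begins an mRNA was not tested. In the comparison of KO with WT, the 10 textbook TOP members had a median log2 fold change of 0.17 and the other 24 members one of 0.15. Both kinds reached down to 0.02, and the highest values were 0.23 among the TOP members and 0.91, that of Eif5a2, among the others.

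Of the 34 translation factor genes, Eif5a2 and Eif4e rose in KO, and the other 32 did not pass the test. The fold changes of those 32 were positive and small, from 0.02 to 0.32 on the log2 scale. Together the 34 genes took 2.62%, 2.80% and 2.71% of all gene counts in KO 1 to 3, and 2.37%, 2.49% and 2.53% in WT 1 to 3. The summed level was 27406 ± 1196 CPM in KO and 24398 ± 978 CPM in WT (SD, n = 3 each), a ratio of 1.12, and the groups did not overlap. A few genes dominate this sum. Eef1a1, which did not pass, held 30.5% to 31.9% of member counts in the KO libraries and 29.6% to 30.6% in the WT libraries. The 5 elongation genes made up 51.5% of the summed level in KO and 50.6% in WT. In such bulk samples, a difference in RNA per cell and one in the share of some cells cannot be told apart. Every member had a positive log2 fold change, as had 48.8% of all 13729 tested genes. The median over the members was 0.16, against −0.01 over all tested genes. In the quasi-likelihood test of edgeR, with p-values adjusted by Benjamini-Hochberg, 2 of 34 members were higher and 0 lower, where 2.14% of tested genes were higher, 2.43% lower and 4.57% changed in either direction. At an unadjusted p under 0.05, 14 members were higher, against 11.3% of tested genes, and 0 were lower, against 12.1%. All KO libraries lay above all WT libraries for 17 members, against 13.8% of tested genes, and below for 0, against 14.7%.

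**Figure D1:**
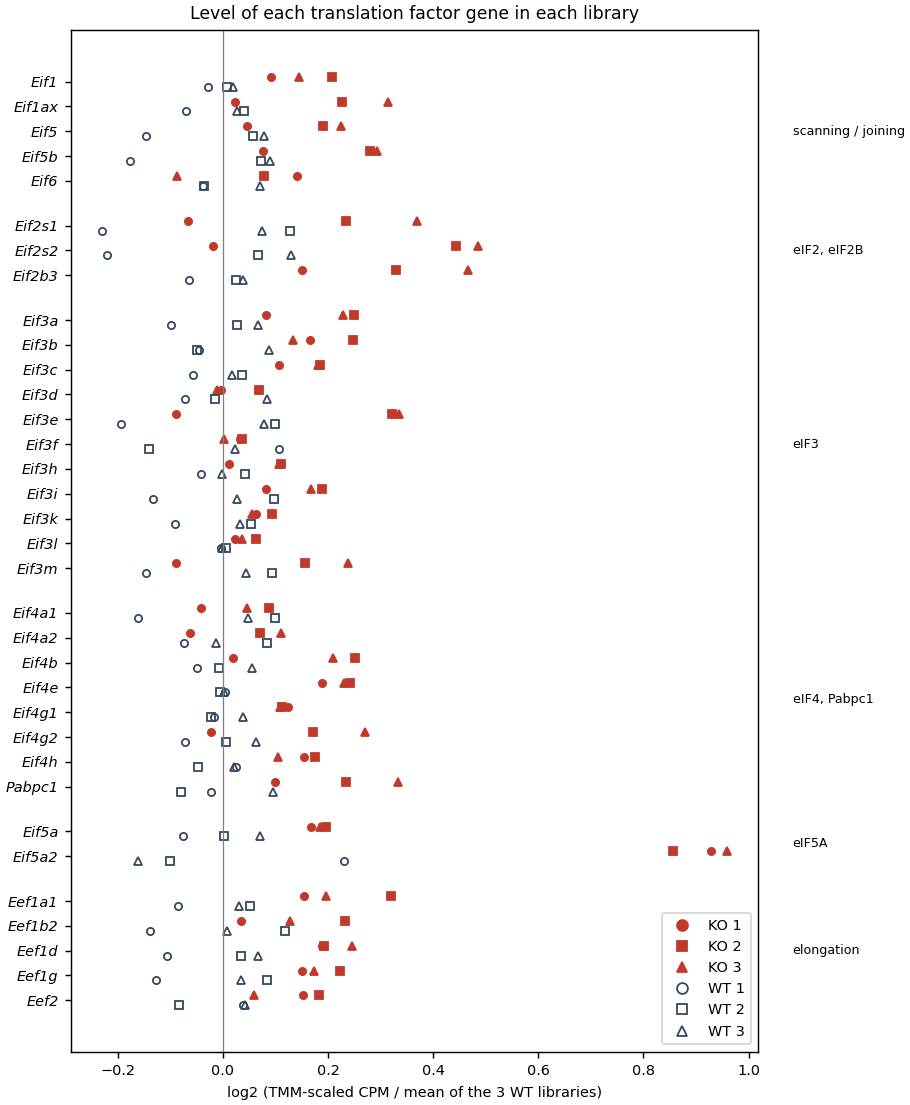
Level of each of the 34 genes in each library, as the log2 ratio of its TMM-scaled CPM to the mean of the 3 WT libraries; filled symbols are KO, open symbols WT, and the shape gives the library number. Most KO points lie right of the WT points of the same shape, with Eif5a2 far to the right and KO 1 and WT 1 left of their groups in most rows.

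The spread between libraries had a pattern. Among the KO libraries, KO 1 was lowest for 25 of 34 members, and among the WT libraries WT 1 was lowest for 26, where the same libraries were lowest for 40.2% and 36.5% of all tested genes. The median member stood at 0.08, 0.19 and 0.18 above the WT mean on the log2 scale in KO 1 to 3, and at −0.07, 0.03 and 0.04 in WT 1 to 3. Comparing libraries of the same number, 29 of 34 members were higher in KO in all 3 comparisons, against 26.5% of tested genes. With the replicate number as a block, 17 members passed as higher and 0 as lower, against 9.96% and 10.3% of tested genes in that fit. When both number 1 libraries were left out, 17 passed as higher as well and 0 as lower, against 10.6% and 10.5% of tested genes. DESeq2 called 3 members higher, Eif4e, Eif5a2 and Eef1a1, against 4.46% of tested genes, and 0 lower, against 4.44%.

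**Figure D2:**
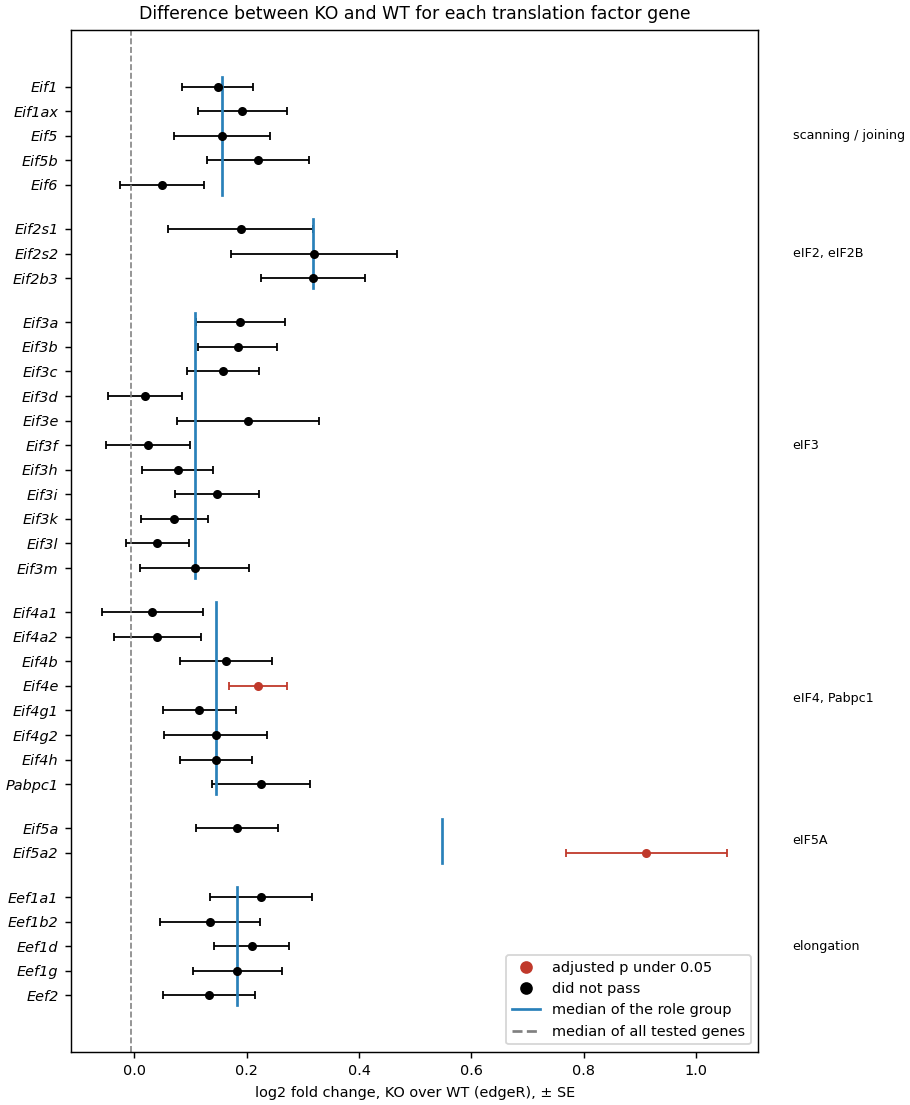
Log2 fold change of KO over WT for each gene with its standard error, grouped by role; blue bars are the medians of the role groups and the dashed line is the median of all tested genes at −0.01. The role group medians run from 0.11 in eIF3 to 0.55 in the eIF5A pair, and the 2 red points, Eif4e and Eif5a2, passed the adjusted threshold.

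Eif5a2 rose in KO, and its difference was the largest among the 34 members. This gene encodes the second eIF5A isoform, which in most tissues is far less abundant than Eif5a. It had 9.96, 9.47 and 10.2 CPM in KO 1 to 3, against 6.14, 4.88 and 4.68 CPM in WT 1 to 3. The groups were far apart, with WT 1 the highest of its group. Behind these levels stood 256, 261 and 139 reads in KO 1 to 3 and 135, 100 and 92 reads in WT 1 to 3. On the log2 scale KO exceeded WT by 0.91 ± 0.14 (SE; edgeR adjusted p = 0.0111, or 0.00111 with the block). Leaving out WT 2 took the adjusted p to 0.0757, while the other 5 omissions gave 0.00707 to 0.0475.

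Eif5a2 is the annotated neighbour of the deleted gene. It spans chr3:28781276-28798846 on the plus strand of GRCm38, and Rpl22l1 begins 6590 bases downstream on the same strand, at chr3:28805436-28807424. The neighbours were looked up after the Eif5a2 value had been seen. Within 1000000 bases on either side, 4 genes of the table passed the count filter, namely Pld1, Tnik, Eif5a2 and Rpl22l1. Tnik, a kinase gene that lies upstream of Eif5a2, averaged 65.6 CPM in KO and 73.7 CPM in WT and did not pass (log2 fold change −0.16 ± 0.26, edgeR adjusted p = 0.747). Pld1, a phospholipase gene, had at most 43 reads in a library and did not pass either (log2 fold change −0.47 ± 0.47, edgeR adjusted p = 0.580). Of these 4, Eif5a2 rose and Rpl22l1 fell (log2 fold change −2.35 ± 0.18, edgeR adjusted p = 0.00103). Whether the altered locus itself sets the Eif5a2 level was not tested.

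Eif5a, the main isoform, had 1220.4, 1245 and 1235 CPM in KO 1 to 3, against 1031, 1088 and 1141 CPM in WT 1 to 3. The KO libraries lay above the WT libraries, yet Eif5a did not pass (log2 fold change 0.18 ± 0.07, edgeR adjusted p = 0.172). With the block it passed, at an adjusted p of 0.0239. Per kilobase of annotated exon, Eif5a exceeded Eif5a2 264-fold in KO and 439-fold in WT. The log2 ratio of Eif5a2 to Eif5a was −6.87, −6.97 and −6.86 in KO 1 to 3 and −7.28, −7.66 and −7.78 in WT 1 to 3. Its mean was higher in KO by 0.68, and the groups did not overlap. A two-sided exact permutation test gave p = 0.1, the smallest that 3 against 3 libraries allow, or 0.3 adjusted over the 3 paralog ratios. Dhps and Dohh, the enzymes that make hypusine on eIF5A, averaged 38.8 and 43.8 CPM in KO and 35.7 and 42.4 CPM in WT, and neither passed in edgeR (adjusted p = 0.400 and 0.719).

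**Figure D3:**
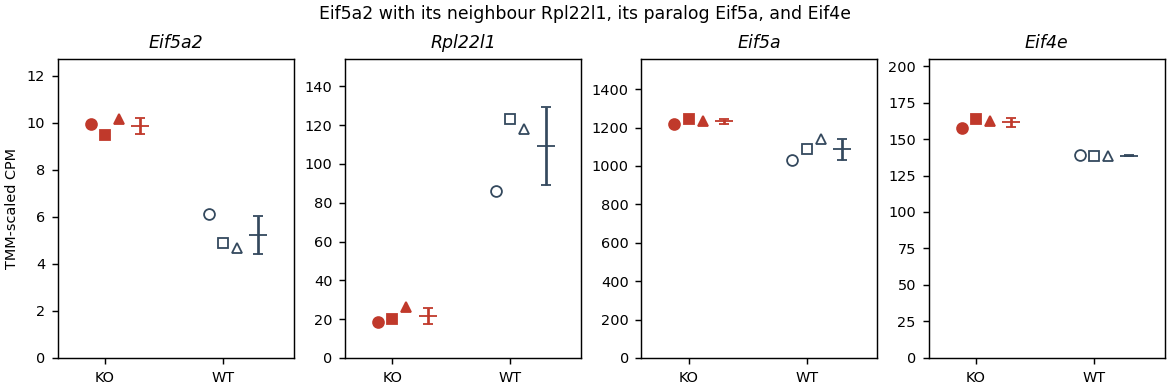
TMM-scaled CPM of Eif5a2, its neighbour Rpl22l1, its paralog Eif5a and the cap-binding gene Eif4e, with KO left of WT, a symbol for each library number, and a bar for the mean ± SD of 3 libraries. Eif5a2 is at 9.47 to 10.2 CPM in KO and 4.68 to 6.14 CPM in WT, while Rpl22l1 is at 18.6 to 26.1 CPM in KO and 86.3 to 123 CPM in WT.

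Of the cap-binding group, Eif4e, whose product binds the mRNA cap, rose in KO. It had 158, 164 and 163 CPM in KO 1 to 3, against 139, 138 and 139 CPM in WT 1 to 3. The groups did not overlap, and the SD was 3.17 CPM around a KO mean of 161 and 0.396 CPM around a WT mean of 139. KO exceeded WT by 0.22 ± 0.05 on the log2 scale, and the edgeR adjusted p of 0.0473 was close to the threshold, while it was 0.0126 with the block. It passed in 6 of the 17 alternative fits, and of the single omissions only that of KO 1 kept it, with adjusted p of 0.0229 to 0.219 over the 6. Over all these fits its log2 fold change stayed between 0.19 and 0.24.

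The other genes of the cap and poly(A) group did not pass. Pabpc1, which coats the poly(A) tail, had 1219, 1338 and 1433 CPM in KO 1 to 3, against 1121, 1078 and 1216 CPM in WT 1 to 3. The KO libraries were all above the WT libraries by a narrow margin, and the gene passed only with the block among the fits on all 6 libraries (log2 fold change 0.22 ± 0.09, edgeR adjusted p = 0.164, or 0.0123 with the block). Eif4g1, the main scaffold, averaged 742 ± 4.09 CPM in KO and 685 ± 16.2 CPM in WT, with non-overlapping groups and a log2 fold change of 0.12. Eif4h, a helper of the eIF4A helicase, also had non-overlapping groups, at 494 ± 12.2 CPM in KO and 447 ± 12.5 CPM in WT. Eif4b and Eif4g2, a helicase cofactor and a scaffold without the cap-binding part, had log2 fold changes of 0.16 and 0.14, and in both KO 1 lay within the WT range.

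The helicase paralogs Eif4a1 and Eif4a2 showed the smallest steps of this group. Eif4a1 had 1341, 1466 and 1424 CPM in KO 1 to 3, against 1233, 1478 and 1427 CPM in WT 1 to 3, with WT 2 the highest of all 6 libraries. Eif4a2 had 496, 543 and 559 CPM in KO 1 to 3, against 492, 549 and 513 CPM in WT 1 to 3. Their log2 fold changes were 0.03 ± 0.09 and 0.04 ± 0.08. The log2 ratio of Eif4a2 to Eif4a1 averaged −1.40 in KO and −1.41 in WT, a difference of 0.01, with an exact permutation p of 1 (two-sided, n = 3 each). For Eif4g2 over Eif4g1 the mean log2 ratio was 0.93 in KO and 0.90 in WT, with an exact permutation p of 0.8.

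None of the 3 member genes of eIF2 and eIF2B passed in the main fit. Their median log2 fold change, 0.32, was the highest of the role groups after the eIF5A pair. Other subunit genes of these complexes are listed below among the further initiation factors, and most had smaller values. Eif2s3x had 0.28 and passed, while Eif2b1, Eif2b4, Eif2b5 and Eif2b2 had 0.20, 0.14, 0.14 and 0.03 and did not. Eif2b3, a subunit of the exchange factor that recharges eIF2, had 31.7, 35.9 and 39.5 CPM in KO 1 to 3, against 27.3, 29.1 and 29.4 CPM in WT 1 to 3. The groups did not overlap, and with a log2 fold change of 0.32 ± 0.09 its adjusted p in edgeR was 0.0817. Eif2s2, the beta subunit of eIF2, had 174, 239.6 and 247 CPM in KO 1 to 3, against 151, 185 and 193 CPM in WT 1 to 3. Here KO 1 fell below WT 2 and WT 3, and the same was true of Eif2s1, the alpha subunit that stress kinases phosphorylate, with 157, 193 and 212 CPM in KO 1 to 3 and 140.1, 179 and 173 CPM in WT 1 to 3. Within each number KO was higher, by 0.20, 0.38 and 0.36 on the log2 scale for Eif2s2 and by 0.16, 0.10 and 0.29 for Eif2s1. With the block the adjusted p was 0.00342 for Eif2s2, 0.0119 for Eif2b3 and 0.0384 for Eif2s1.

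The 11 subunits of eIF3, the scaffold on the small ribosomal subunit, had a median log2 fold change of 0.11 and ranged from 0.02 to 0.20. None passed in the main fit, and the SD of their 11 fold changes, 0.07, was about as large as the median SE of 1 of them, also 0.07. Their summed level was 3411 ± 157 CPM in KO and 3123 ± 127 CPM in WT (SD, n = 3 each). Eif3a, Eif3b and Eif3c, core subunits, stood at 0.19, 0.18 and 0.16, and for all 3 every KO library was above every WT library. Eif3a had 647, 726 and 715 CPM in KO 1 to 3, against 570.4, 623 and 639 CPM in WT 1 to 3. Eif3e had a log2 fold change of 0.20 ± 0.13, but its KO 1 library, at 251 CPM, lay below WT 2 and WT 3 at 285 and 281 CPM. With the block, Eif3a, Eif3b, Eif3c and Eif3e passed, with adjusted p of 0.0208, 0.0460, 0.0483 and 0.0277.

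At the other end of eIF3, Eif3d, which can itself bind caps, had 231, 243 and 230.0 CPM in KO 1 to 3, against 220.3, 229 and 245 CPM in WT 1 to 3, and a log2 fold change of 0.02 ± 0.07. Eif3f had 271, 271 and 265 CPM in KO 1 to 3, against 285, 240.1 and 269 CPM in WT 1 to 3, and likewise 0.02 ± 0.07. In both genes the groups overlapped fully, and their fold changes turned slightly negative when libraries were scaled by size alone. Eif3h, Eif3i, Eif3k, Eif3l and Eif3m had fold changes of 0.04 to 0.15 on the log2 scale. Of these, Eif3k and Eif3l had non-overlapping groups, at 160 ± 2.28 and 231 ± 3.22 CPM in KO and 152 ± 8.13 and 225 ± 0.824 CPM in WT.

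Of the 5 factors of start codon choice and subunit joining, none passed in the main fit, and the median log2 fold change was 0.16. Eif1, which guards start codon fidelity, had 329, 356 and 341 CPM in KO 1 to 3, against 303, 310.3 and 313 CPM in WT 1 to 3, and was the only one of the 5 whose groups did not overlap. Eif1ax, the X-linked gene of eIF1A, Eif5, which triggers GTP hydrolysis by eIF2, and Eif5b, the subunit-joining GTPase, had log2 fold changes of 0.19, 0.16 and 0.22. These 3 passed with the block, with adjusted p of 0.0363, 0.0480 and 0.0129. Eif6, which keeps the large subunit from joining early and also acts in ribosome assembly, had 97.6, 93.5 and 83.3 CPM in KO 1 to 3, against 86.2, 86.4 and 92.9 CPM in WT 1 to 3. For Eif6 the number 3 libraries ran against the other numbers, with KO lower by 0.16 on the log2 scale.

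The 5 elongation factors had similar log2 fold changes, between 0.13 and 0.23 with a median of 0.18 and an SD of 0.04, and none passed in the main fit. Eef1a1, which carries aminoacyl-tRNA to the ribosome, had 8139.8, 9119 and 8376 CPM in KO 1 to 3, against 6887, 7579.6 and 7462 CPM in WT 1 to 3. No KO library reached down into the WT range. At a log2 fold change of 0.23 ± 0.09 it missed the threshold in edgeR (adjusted p = 0.178) and passed with the block (adjusted p = 0.00513). Eef2, the translocase, had 3431, 3505 and 3215 CPM in KO 1 to 3, against 3171, 2913 and 3178 CPM in WT 1 to 3. KO 3 exceeded WT 3 by only 0.02 on the log2 scale, and Eef2 did not pass in either fit. Of the exchange factor eEF1B, Eef1d had 226, 227 and 235 CPM in KO 1 to 3 and 184, 203 and 208 CPM in WT 1 to 3, with an edgeR adjusted p of 0.101. Eef1g averaged 1104 ± 28.3 CPM in KO and 973 ± 73.0 CPM in WT, and Eef1b2 849 ± 57.9 CPM in KO and 774 ± 68.3 CPM in WT. Groups did not overlap for Eef1d and Eef1g, but did for Eef1b2. With the block Eef1d and Eef1g also passed, at adjusted p of 0.0201 and 0.0264. All 5 were higher in KO within each library number.

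Per kilobase of annotated exon the members spanned a range of 1746-fold in KO. Eef1a1 led with 3428 ± 205 CPM per kilobase in KO and 2932 ± 149 in WT, and held 41.5% of the summed level per kilobase of the 34 genes in KO. Eef2 followed at 1018 ± 45.3 in KO and 929 ± 45.4 in WT, then Eif5a at 519 ± 5.29 in KO and 457 ± 23.2 in WT, and Eef1g at 425 ± 10.9 in KO and 374 ± 28.1 in WT. These leading steps exceeded the spread between libraries in both groups. Eef1b2 and Eif4a1, next in order, overlapped, at 335 and 325 in KO and 306 and 318 in WT. Below them came Pabpc1, Eif4b, Eif3h and Eif1, between 163 and 203 in KO. At the low end were Eif5b, Eif2b3 and Eif5a2, at 23.4, 5.48 and 1.96 in KO and 20.1, 4.38 and 1.04 in WT. Of the 33 neighbouring steps in this order, 17 were larger than the spread between libraries in KO, and 20 in WT. Exon lengths join all annotated isoforms, which understates genes with long minor isoforms such as Eef1d.

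**Figure D4:**
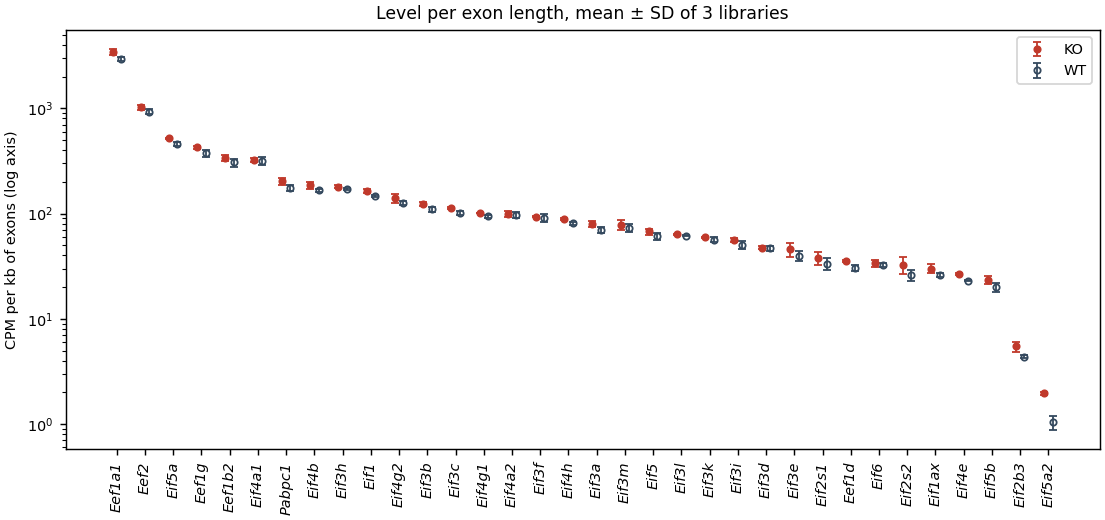
Mean ± SD (n = 3) of TMM-scaled CPM per kilobase of annotated exon for each gene, on a log axis, with KO as filled and WT as open points, ordered by the KO level. Eef1a1 leads at 3428 in KO and 2932 in WT, and Eif5a2 is last at 1.96 in KO and 1.04 in WT.

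Reads that align to several places bear on some of these levels, since they were kept apart from the gene counts. Such reads were 9.18% to 10.2% of all counts of a library in KO and 9.14% to 9.90% in WT. In the GENCODE transcripts, 9 members shared more than 20% of their 50-base words with another gene or pseudogene. Eif4a1, Eef1g and Eef1a1 shared the most, at 65.3%, 64.3% and 60.6%, so their levels are uncertain. Eif5a2 shared 0% and Eif4e 7.16%. Small nucleolar RNA genes overlap the span of several members, among them Eif4a2 with 5 and Eif4a1 and Eef1b2 with 3 each. Their strand and place in introns were not checked. On the same strand, exons of Eef1d overlap those of Naprt, and exons of Eef1b2 those of Gm27390. Eif5b, Eif6, Eif3d, Eif3m, Eif4a2 and Eef1b2 overlap exons of a gene on the other strand, and without the strand setting those reads cannot be told apart.

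Other genes of the pathway, in 6 lists, did not share 1 pattern. Of 24 further initiation factors, 2 were higher and 0 lower, against 2.14% and 2.43% of all tested genes. Of the 24, 21 were positive, against 48.8% of all tested genes, and the median log2 fold change was 0.16, as among the members. With the block 7 were higher, against 9.96%, and with DESeq2 4, against 4.46%. Those that passed in the main fit were Eif2s3x, the gamma subunit of eIF2, at 421 to 458 CPM in KO and 356 to 370.0 CPM in WT (0.28 ± 0.07, edgeR adjusted p = 0.0440), and Pabpc4, a second poly(A)-binding protein, at 259 ± 12.1 CPM in KO and 214 ± 8.62 CPM in WT (0.28 ± 0.07, edgeR adjusted p = 0.0460). A further list of 15 genes held repressors of cap binding and effectors of mTOR, along with other kinases such as Mknk1 and Rps6ka1. Of these 15, 0 passed in edgeR or DESeq2, with 8 positive and 7 negative and a median of 0.0021. Pdcd4, which holds eIF4A inactive, and Rps6ka1, a kinase of the S6 kinase family, had log2 fold changes of −0.32 and −0.22, with all KO libraries below all WT libraries and adjusted p of 0.119 and 0.0853 in edgeR. Among those 15, 1 was higher and 3 lower at an unadjusted p under 0.05, and as many with the block, where Larp1 was higher and Pdcd4, Mknk1 and Rps6ka1 lower.

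Of 13 tested genes of elongation control and eIF5A modification, 0 passed, and the median was 0.04. Eefsec, the elongation factor of selenocysteine, had 0.32 ± 0.09, and Eef2k, the kinase that inactivates eEF2, −0.22 ± 0.08, with adjusted p of 0.0858 and 0.130 in edgeR. Of 9 tested termination and rescue genes 0 passed, with a median of 0.03. Gspt1, the release factor eRF3A, had 0.24 ± 0.07 and Gtpbp2, a ribosome rescue GTPase, −0.33 ± 0.13, with adjusted p of 0.0839 and 0.174. Of 8 eIF2 kinase and phosphatase genes 0 passed, with a median of 0.06. Eif2ak1, a stress kinase of eIF2, had 0.13 ± 0.06, and Ppp1r15a, which brings the phosphatase to eIF2, 0.81 ± 0.38, with adjusted p of 0.238 and 0.278. Of 9 mitochondrial translation factors 0 passed, with a median of 0.13. Tsfm and Gfm1, mitochondrial elongation factor genes, both had 0.25, with adjusted p of 0.0877 and 0.125. At an unadjusted p under 0.05 these 4 lists had 3, 3, 0 and 3 genes in that order, and with the block they had 2 higher and 1 lower, 2 higher and 1 lower, 0, and 2 higher. DESeq2 called Eefsec and Gspt1 higher and none of the eIF2 or mitochondrial lists. Over all tested genes the shares were 11.3% higher and 12.1% lower at that unadjusted p, and 9.96% higher and 10.3% lower with the block.

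Cell cycle genes were higher in the same libraries. Of a list of 20, each had a positive fold change (median 0.40 on the log2 scale), and 3 rose (Ccnb1, Ube2c and Mcm3), or 19 with the block and 16 with DESeq2, where 2.14%, 9.96% and 4.46% of all tested genes were higher in those 3 fits. Their summed level was 6081, 7317 and 7443 CPM in KO 1 to 3, against 5387, 5346 and 5974 CPM in WT 1 to 3, so the groups did not overlap and KO 1 was again the lowest KO library. Dendritic cell markers were near 0 and ran the other way. Over 8 genes they summed to 4.36 to 6.07 CPM in KO and 8.82 to 10.97 CPM in WT. Of the 4 tested, 2 fell (Cd74 and H2-Eb1), against 2.43% of all tested genes. H2-Eb1 averaged only 0.173 CPM in KO and 0.674 CPM in WT. DESeq2 called only Cd74 lower and the block all 4, against 4.44% and 10.3% of all tested genes. Of B lineage markers 1 of 2 tested fell (Cd79b), with a sum over 7 genes of 24.2 to 27.7 CPM in KO and 30.8 to 33.6 CPM in WT. Erythroid and platelet markers summed to 1.98 to 3.73 CPM in KO and 4.32 to 6.73 CPM in WT over the 6 genes in the table, and all 4 tested were negative. None of these passed in the main fit, 1 had an unadjusted p under 0.05, and Hba-a2 was lower with DESeq2 and with the block. Of 4 tested myeloid and 2 tested NK markers 0 passed in edgeR or DESeq2, and 0 at an unadjusted p under 0.05, with sums that overlapped between groups. Of 4 tested stromal and epithelial markers Pdgfrb rose and Epcam fell. Of the 12 listed DN3 genes 0 passed in the main fit, with 5 positive and 7 negative. With the block 2 were higher (Il2ra and Dtx1) and 4 lower (Rag1, Notch3, Bcl11b and Lck), against 9.96% and 10.3% of all tested genes. DESeq2 called Il2ra higher and Notch3 lower. Kit, an early progenitor gene listed as low or absent at DN3, averaged 25.8 CPM in KO and 42.3 CPM in WT and fell (edgeR adjusted p = 0.0183). The part of these differences in the levels of the translation factors was not tested.

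**Figure D5:**
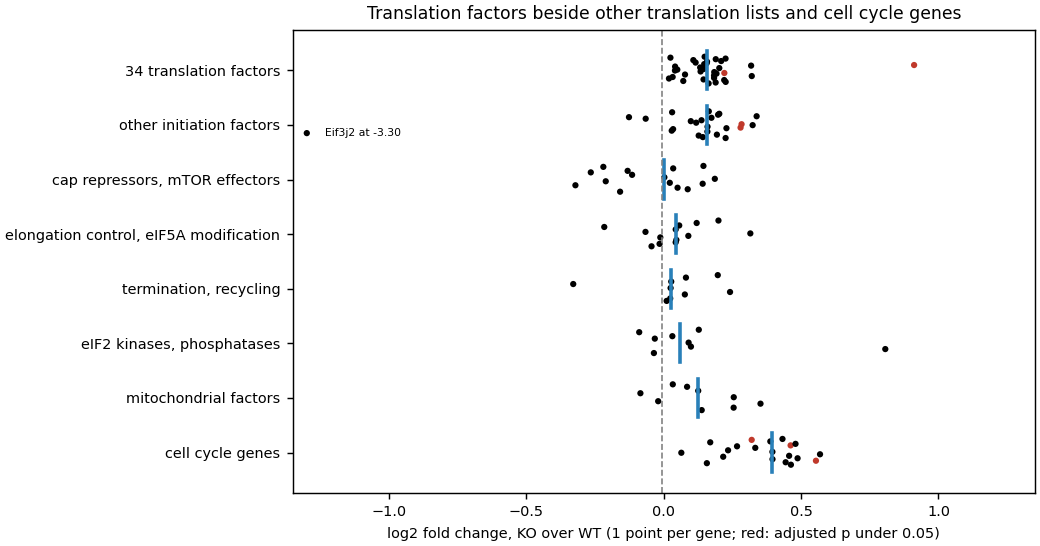
Log2 fold change of KO over WT for each gene of the 34 translation factors, 6 further translation lists and 20 cell cycle genes; blue bars are list medians, red points passed the adjusted threshold, the dashed line is the median of all tested genes, and Eif3j2, at −3.30, is drawn at the left edge. The members and the other initiation factors share a median of 0.16. The list drawn as cap repressors and mTOR effectors, which also holds other kinases, lies at 0.0021, and the cell cycle genes at 0.40.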

How the data were processed

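RNA from DN3 thymocytes of 3 KO and 3 WT samples was sequenced. The authors deposited raw read counts per gene symbol, made with TopHat2 and HTSeq on GRCm38 per the submitters' processing notes. The sources used here give no version, annotation or strand setting. Columns named Ctrl were matched to WT titles by number. Summary rows, including reads of no feature (50.4% to 51.9% of all counts of a library), were left out.

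Genes were filtered with filterByExpr (minimum count 10, total 15), scaled by TMM and tested with edgeR 4.0.16 in R 4.3.3 (robust quasi-likelihood F test, two-sided, group alone). P-values were adjusted over 13729 genes at 0.05. SEs are those implied by the F statistic. DESeq2 1.42.0, limma-voom (limma 3.58.1), a replicate block, other scalings and filters, and omitted libraries were alternatives. The test was checked on simulated data with planted changes larger than that of any member and with no library-number effect. That check therefore does not cover changes as small as those of most members. Paralog ratios used log2(CPM + 0.5).

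Lengths, coordinates and shared 50-base words come from GENCODE M21 (GRCm38). Members and lists were chosen with earlier results of these data known. Every member is named, as are the genes of each other translation list that passed, or else its 2 with the smallest p. The labels do not say whether each library is a different mouse. P-values therefore describe the spread among these libraries, which could be technical.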

Additional observations from a re-analysis of the deposited data

How the results depend on the processing

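The direction of Eif5a2 and Eif4e and the positive median of the 34 genes held in all alternatives that tested them. The median log2 fold change ranged from 0.12 to 0.20, and 0 members were called lower in any fit. The number of members called higher, 2 in the main fit, was 1 with limma-voom, upper-quartile scaling, library size alone or a 5 CPM filter, and 0 with a filter of 50 CPM, an alternative added after seeing the data that leaves Eif5a2 and Eif2b3 untested. It was 3 with DESeq2, and 17 both with the replicate block and without both number 1 libraries. Single omissions gave 0 to 8, with 0 without WT 2 and 8 without KO 1. The count over all tested genes, 628, was 1037 without a count filter, 181 with the filter of 50 CPM, 1222 with DESeq2, 2785 with the replicate block, 2881 without both number 1 libraries, and 109 to 2177 under single omissions. The cause was not tested.

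Signs that turned all belonged to values that never passed. Eif3d was at −0.012 with library size alone, −0.013 with the filter of 50 CPM, −0.0041 without both number 1 libraries and −0.015 (without WT 1) to 0.069 under single omissions. Eif3f was at −0.0073 with library size alone, −0.0082 with the 50 CPM filter and −0.041 (without WT 2) to 0.081 under single omissions. Eif4a1 ranged over −0.041 (without WT 1) to 0.085 there and was at −0.0066 without both number 1 libraries, where Eif6 was at −0.015. The Eif5a2 to Eif5a ratio differed by 0.57 to 0.83 under single omissions and by 0.73 with a smaller pseudocount. As mean of same-numbered differences it was 0.68, and the replicate block version had an exact sign-flip p of 0.25, the smallest that 3 pairs allow. Reads here carry no molecular identifiers, so counting limits are lower bounds on the error. With 3 libraries a group, steps of 0.1 on the log2 scale lie within about 1 to 2 SEs.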

Other observations

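Eif3j2, a near copy of the eIF3 subunit gene Eif3j1, had 11, 8 and 7 reads in KO 1 to 3 and 227, 15 and 13 reads in WT 1 to 3, so that a single WT library gave its log2 fold change of −3.30 (adjusted p of 0.255 in edgeR). Eif3j1 had 2282, 3128 and 1537 reads in KO 1 to 3 and 1336, 1994 and 1788 reads in WT 1 to 3, and WT 1 was its lowest library. Both genes were singled out after their values had been seen.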
